A study of Mus musculus with 6 samples.

Results

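The genes of MHC class II presentation were followed in BCR-ABL1-transformed pre-B cells of the mouse that had received Blnk, an adaptor protein through which the pre-B cell receptor reaches its signalling enzymes. The 9 genes were chosen by name: the class II chains H2-Aa, H2-Ab1 and H2-Eb1, the invariant chain Cd74, the peptide-loading chaperones H2-DMa, H2-DMb2, H2-Oa and H2-Ob, and the transactivator Ciita. Each was read from its brightest probe with 1 gene symbol over the 6 arrays. Of the 9 genes, 8 had such a probe, among 19938 genes in all. H2-DMb2 was found on 1 probe that is also annotated to its relative H2-DMb1, and this shared probe is given apart from the count.

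The Blnk group comprised 3 samples transduced with Blnk (Slp65), and the pMIG group 3 samples transduced with pMIG, a retroviral vector that carries GFP. All 6 samples were labelled as Blnk KO cells from Balb/c mice with an age of 4 weeks, with BCR-ABL1-driven ALL as the disease state. BCR-ABL1 is the constitutively active kinase made by the Philadelphia chromosome. Cells positive for GFP were sorted 5 days after transduction, and their total RNA was hybridised to Affymetrix arrays, so that the comparison asks what adding Blnk does to the transcripts of these cells. Whether separate mice or cultures lie behind the samples is not stated in the labels, and p-values therefore cover a spread that may be technical only.

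A class II molecule is a pair of an alpha and a beta chain that carries peptides from the endosomal pathway to CD4+ T cells. The invariant chain, Cd74, holds the groove of new pairs closed and guides them to endosomes. There H2-DM, a pair of H2-DMa with an H2-DMb chain, exchanges the remnant of the invariant chain for peptides, and H2-O, a pair of H2-Oa and H2-Ob found mostly in B cells, restrains H2-DM. Ciita binds no DNA itself. It is recruited to a promoter module of class II genes, made of an X box bound by RFX and a Y box bound by NF-Y, and mouse B-lineage cells are known to raise class II as they mature.

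The promoter module is shown here because it is known as the element through which Ciita reaches class II genes, and it was searched for in the promoters at hand. RefSeq promoter sequences (GRCm38.p6, from the C57BL/6J strain, whereas the samples were Balb/c) were available for 6 of the 9 genes: H2-Aa, H2-Eb1, H2-DMa, H2-DMb2, H2-Oa and H2-Ob. In 4 of them, both elements lay close upstream of the annotated start on the strand of the gene. Capitals mark GCAAC, which is part of the X box, ATTGG, the core of the Y box, and, in H2-Aa, TGACGTCA, a full X2 box.
H2-Aa: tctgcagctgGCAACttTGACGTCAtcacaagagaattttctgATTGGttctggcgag
H2-Eb1: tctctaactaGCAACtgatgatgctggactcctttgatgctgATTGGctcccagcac
H2-Oa: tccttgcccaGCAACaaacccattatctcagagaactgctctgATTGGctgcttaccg
H2-Ob: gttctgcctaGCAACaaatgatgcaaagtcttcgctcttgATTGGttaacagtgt
The stretches lie at chr17:34287857-34287914 on the minus strand (H2-Aa) and, on the plus strand, at chr17:34305766-34305822 (H2-Eb1), chr17:34092293-34092350 (H2-Oa) and chr17:34238808-34238862 (H2-Ob). From the first base of GCAAC to the first base of ATTGG the distance was 33 bases in H2-Aa, 32 in H2-Eb1, 33 in H2-Oa and 30 in H2-Ob. The pair began 81 bases upstream of the start in H2-Aa, 91 in H2-Eb1, 76 in H2-Oa and 87 in H2-Ob.

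Single motifs of this length are common, and the matches are a description of letters only. Over the 250 bases upstream of each start and on both strands, ATTGG was found in 33.8% of 32851 promoters and GCAAC in 29.9%. GCAAC followed by ATTGG on 1 strand at a distance of 15 to 45 bases was found in 1.21% of all promoters. Both GCAAC and this distance were chosen after the class II promoters had been read. TGACNTCA, the X2 box, was in 7.49% of promoters and, of the 6 genes, in H2-Aa alone. TGNNTCA, listed as a loose X2 pattern, is shorter and does not cover TGACNTCA. It was in 37% of promoters and in the other 5 genes. Of the printed stretches, that of H2-Ob alone held it, on the opposite strand. In H2-Eb1 and H2-Oa it lay farther upstream. A longer and more specific X box pattern, listed first, was in 0.591% of promoters and in 0 of the 6 genes. H2-DMa (2 annotated starts) and H2-DMb2 each held ATTGG without a GCAAC at that distance.

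**Figure D1:**
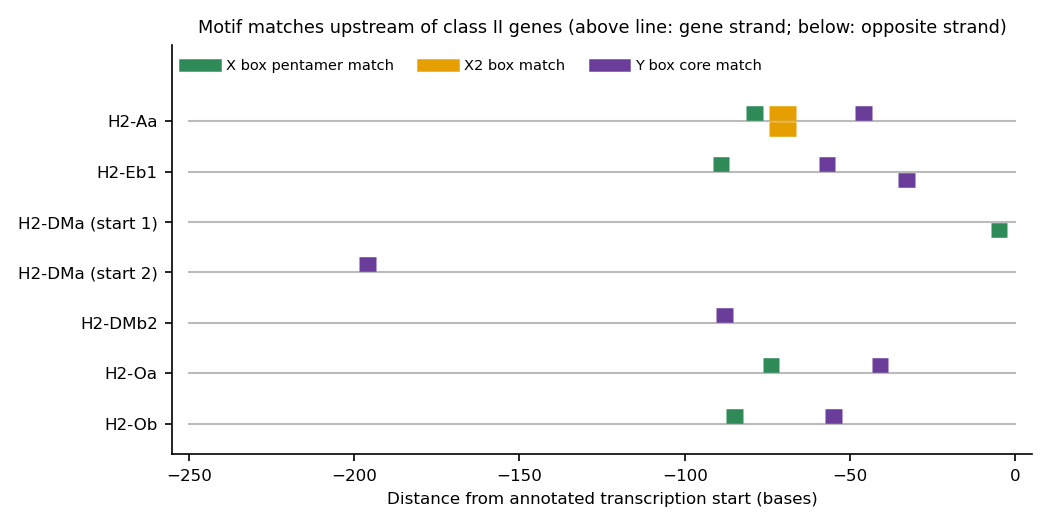
Matches of the X box pentamer, the X2 box and the Y box core in the 250 bases upstream of the annotated starts of 6 class II genes, with the distance from the start on the x axis and 1 line per start. H2-Aa, H2-Eb1, H2-Oa and H2-Ob show a green X match 30 to 33 bases before a purple Y match, and H2-DMa and H2-DMb2 do not.

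Within a group, arrays had Pearson correlations of 0.9951 to 0.9969 across genes, and median intensity was 67.0 to 70.0 on every array. Blnk itself read 2714, 3342 and 3022 in the Blnk samples and 972, 926 and 1013 in the pMIG samples. The pMIG level lies well above the array medians although the cells are labelled Blnk KO, and the part of Blnk that the probe reads is not known here. Intensities below are linear values of 1 probe, so that levels of different genes cannot be set against each other.

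Class II genes were higher with Blnk. Of the 8 genes with their own probe, 7 rose and 0 fell at an adjusted p below 0.05 (limma, Benjamini-Hochberg over 19938 genes), where 2.51% of all genes rose and 1.10% fell (3.61% in either direction). At an unadjusted p under 0.05, 8 were higher and 0 lower, where 1777 of the 19938 genes were higher and 1261 lower. The median log2 fold change of the 8 was 0.78, against 0.00 for all genes. All 8 had every Blnk sample above every pMIG sample, as did 11.8% of all genes. Summed over the 8 probes, intensity was 7551 to 8675 in the Blnk samples and 3886 to 3954 in the pMIG samples. Most of this sum came from Cd74, at 5390 to 6336 in the Blnk samples and 2639 to 2694 in the pMIG samples. RNA was measured in bulk, so a change per cell and a change in the number of cells that express a gene cannot be told apart.

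**Figure D2:**
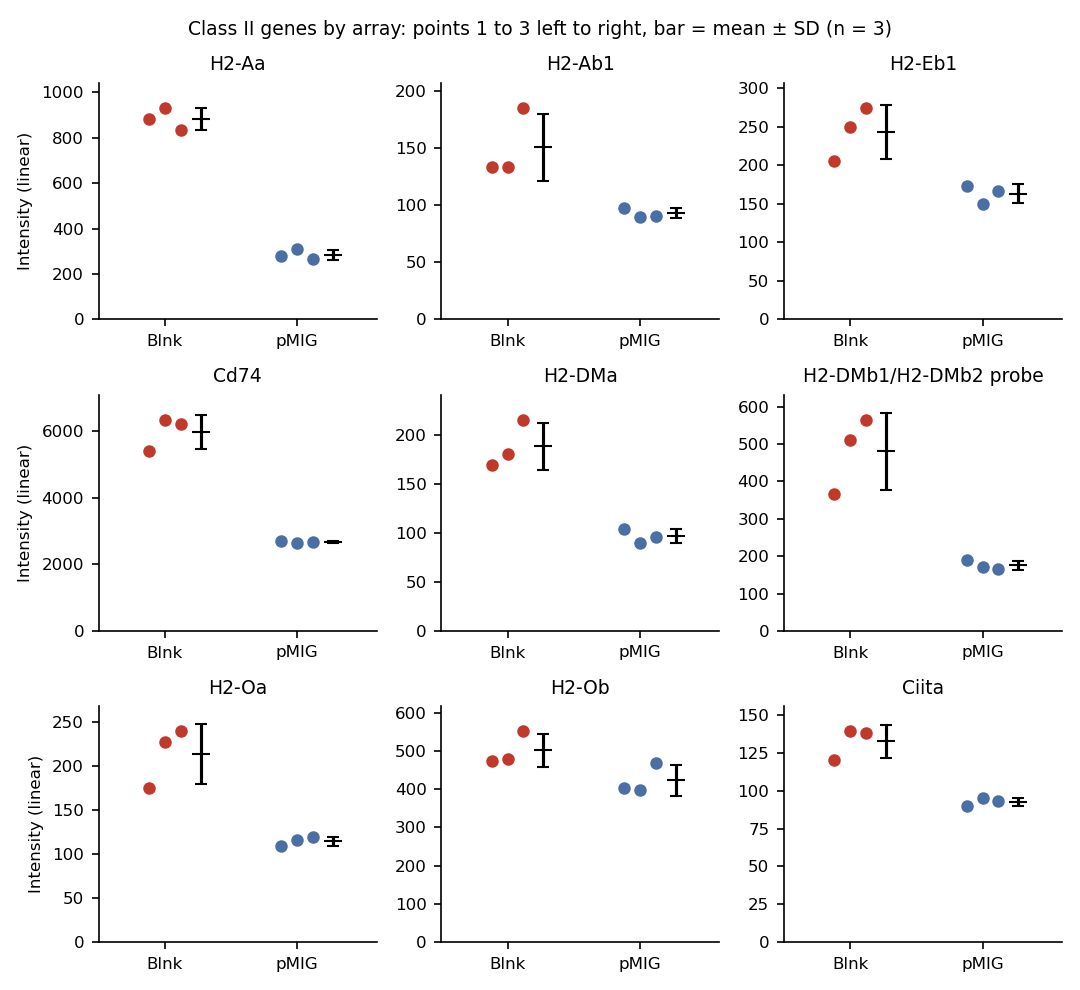
Linear intensity of each class II gene on every array (y axes start at 0), with Blnk samples in red on the left and pMIG samples in blue on the right, replicates 1 to 3 in order, and bars for the mean ± SD (n = 3). In every panel the lowest Blnk sample lies above the highest pMIG sample, with the narrowest gap in H2-Ob (473 against 468).

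Among the chains that present peptide, H2-Aa, the alpha chain of I-A, had the largest change. Its intensity was 884, 929 and 833 in the Blnk samples and 279, 308 and 265 in the pMIG samples, so that the groups lay far apart. The rise was 3.11-fold (log2 fold change 1.64, SE 0.0830, 95% interval 1.44 to 1.83; limma adjusted p = 6.44e-05), which placed H2-Aa at rank 30 of 19938 genes by log2 fold change. H2-Ab1, the beta chain that pairs with H2-Aa, read 134, 134 and 185 in the Blnk samples and 98, 90 and 91 in the pMIG samples. Its groups also stood apart, but Blnk 3 was well above the other two, and the pMIG level was only somewhat above the array medians. H2-Ab1 rose 1.61-fold (log2 fold change 0.68, SE 0.130, 95% interval 0.38 to 0.99; limma adjusted p = 0.0322).

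H2-Eb1, the beta chain of I-E, had the smallest change of the 3 classical chains, with an interval that overlapped that of H2-Ab1. It stood at 206, 250 and 274 in the Blnk samples and at 173, 150 and 167 in the pMIG samples, with Blnk 1 closest to the pMIG range. The change was 1.48-fold (log2 fold change 0.57, SE 0.115, 95% interval 0.30 to 0.84; limma adjusted p = 0.0403). H2-Ea, the alpha chain that pairs with H2-Eb1 and that Balb/c mice express, belonged to a list of other class II genes. It read 523, 630 and 561 in the Blnk samples and 333, 292 and 254 in the pMIG samples, and rose by 0.97 on the log2 scale (limma adjusted p = 0.00393). H2-Eb2, a further beta chain gene of the region, did not pass, at 62.0 ± 6.56 in the Blnk samples and 71.7 ± 9.71 in the pMIG samples (SD, n = 3; log2 fold change -0.21, limma adjusted p = 0.504).

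The invariant chain rose as well. Cd74 read 5390, 6336 and 6216 in the Blnk samples and 2694, 2639 and 2655 in the pMIG samples, where the 3 values were nearly equal. The groups differed 2.24-fold (log2 fold change 1.16, SE 0.0811, 95% interval 0.98 to 1.35; limma adjusted p = 0.000265), at rank 61 of all genes. Blnk 1 was the lowest of its group, and still lay far above the highest pMIG sample (5390 against 2694).

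Both chains of the peptide exchange factor H2-DM were higher with Blnk, as far as the probes separate them. H2-DMa, the alpha chain, read 169, 180 and 215 in the Blnk samples and 104, 90 and 96 in the pMIG samples. It rose 1.94-fold (log2 fold change 0.95, SE 0.106, 95% interval 0.71 to 1.20; limma adjusted p = 0.00275). The probe shared by the beta chain genes H2-DMb1 and H2-DMb2 read 366, 512 and 565 in the Blnk samples and 190, 171 and 166 in the pMIG samples. In a fit that kept probes with several symbols, it rose by 1.43 on the log2 scale (SE 0.156, 95% interval 1.07 to 1.80; limma adjusted p = 0.00289), where 2.49% of the 20738 entries rose. The share of H2-DMb2 in that signal was not tested.

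Of the 2 chains of H2-O, one passed the test and the other did not. H2-Oa, the alpha chain, read 175, 227 and 239 in the Blnk samples and 109, 116 and 119 in the pMIG samples, with the groups well apart. Its rise was 1.85-fold (log2 fold change 0.89, SE 0.120, 95% interval 0.61 to 1.17; limma adjusted p = 0.00736). H2-Ob, the beta chain, read 473, 480 and 551 in the Blnk samples and 402, 398 and 468 in the pMIG samples. These groups touched, with pMIG 3 just below the lowest Blnk sample. H2-Ob did not pass (1.19-fold; log2 fold change 0.25, SE 0.0961, 95% interval 0.02 to 0.47; limma adjusted p = 0.275). Its promoter carries the same pair of elements as those of H2-Aa, H2-Eb1 and H2-Oa printed above.

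Ciita, the transactivator, rose too. It read 120, 139 and 138 in the Blnk samples and 90, 95 and 93 in the pMIG samples. The change was 1.43-fold (log2 fold change 0.51, SE 0.0804, 95% interval 0.32 to 0.70; limma adjusted p = 0.0137). The upper limit of this interval lay below the lower limits for H2-Aa, Cd74, H2-DMa and the shared H2-DMb probe, and it overlapped the intervals of H2-Ab1, H2-Eb1, H2-Oa and H2-Ob.

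**Figure D3:**
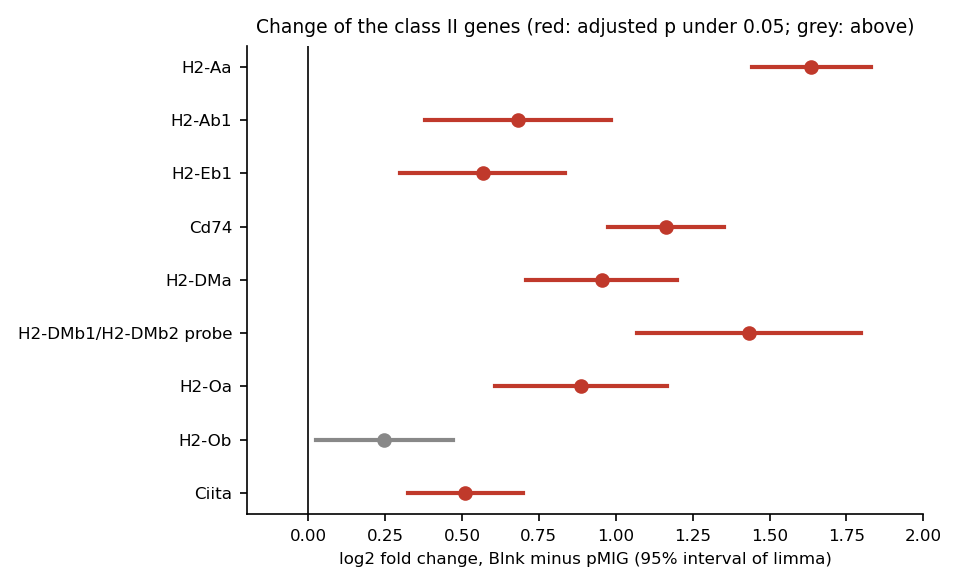
Log2 fold change, Blnk minus pMIG, of the 8 class II genes and of the probe shared by H2-DMb1 and H2-DMb2, with 95% intervals from limma, red where the adjusted p is below 0.05 and grey where it is not. H2-Aa (1.64) and the shared probe (1.43) lie farthest to the right, and H2-Ob (0.25) is the single gene in grey.

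Partner chains were also compared directly, as the difference of their log2 changes within arrays. The change of H2-Aa exceeded that of H2-Ab1 by 0.95 (SE 0.214), and that of H2-Oa exceeded H2-Ob by 0.64 (SE 0.118). H2-Ea exceeded H2-Eb1 by 0.40 (SE 0.154), and the shared H2-DMb probe exceeded H2-DMa by 0.48 (SE 0.123). The comparisons were added after values were seen, with the chain that rose more taken first. In all 4 pairs the 3 Blnk samples lay apart from the 3 pMIG samples. How often other pairs of genes do so was not tested. Each gave an exact two-sided permutation p = 0.1, the smallest that 3 against 3 samples allow, so that no pair could pass and the differences are given as values only. How each probe responds to its transcript was not tested.

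Among the Blnk samples, Blnk 1 was the lowest of the 3 in 6 of the 8 class II genes and tied for lowest in H2-Ab1. The share of all genes that were lowest in Blnk 1 was not counted. Blnk 3 was the highest in 5 genes, and Blnk 2 in H2-Aa, Cd74 and Ciita. H2-Aa had its lowest value in Blnk 3. Blnk transcript was also lowest in Blnk 1 (2714, against 3342 and 3022), and its part in these values was not tested. On the linear scale the SD was larger in the Blnk samples than in the pMIG samples for all 8 genes, from 10.7 against 2.52 (Ciita) to 515 against 28.3 (Cd74). On the log2 scale, on which the groups were tested, the SD was larger in the Blnk samples for 6 genes and smaller for H2-Aa (0.0788 against 0.110) and H2-Ob (0.121 against 0.131).

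Leaving out 1 array at a time kept the direction of all 8 genes. That was certain beforehand, since every Blnk sample lay above every pMIG sample. H2-Aa, Cd74 and H2-DMa passed with any 1 array left out, with adjusted p of at most 0.00255, 0.00544 and 0.0308. H2-Oa did not pass without Blnk 2 (0.0615), pMIG 1 (0.0511) or pMIG 3 (0.0538). Ciita passed without Blnk 1 (0.0155), but not without any of the other 5 arrays (0.0542 to 0.0816). H2-Ab1 passed without Blnk 3 (0.0349) alone, and H2-Eb1 without Blnk 1 (0.0275) alone. Fewer arrays weaken the test by construction.

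**Figure D4:**
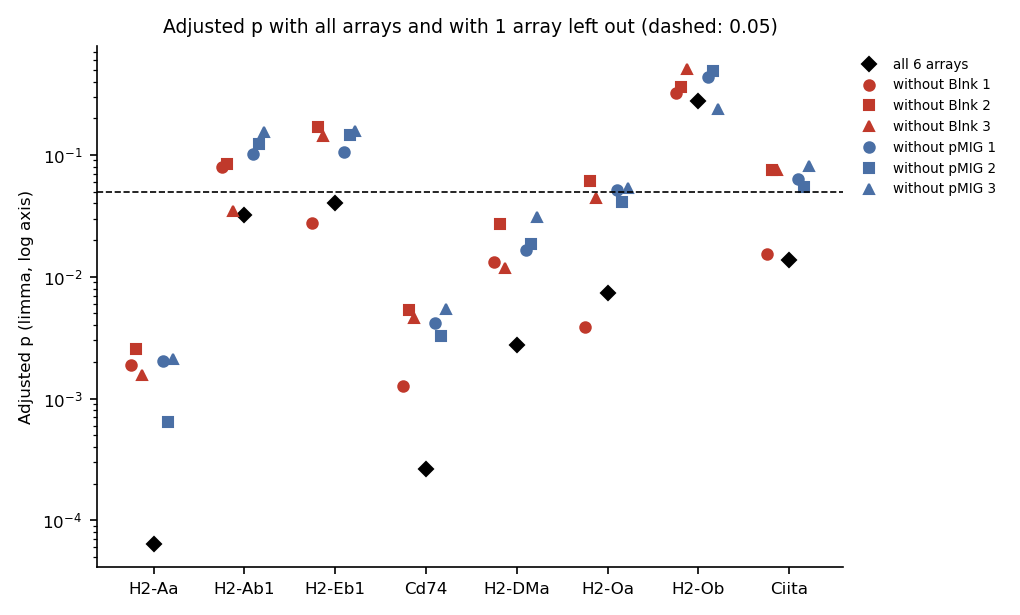
Adjusted p of limma (log axis) for each class II gene with all 6 arrays (black diamonds) and with 1 array left out (red, a Blnk array; blue, a pMIG array), with the dashed line at 0.05. H2-Aa, Cd74 and H2-DMa stay below the line throughout, H2-Ob stays above it, and the other genes lie on both sides.

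None of the DNA-binding factors of the class II promoter passed the test. In the list of Rfx5, Rfxap and Rfxank, which form the RFX complex, Nfya, Nfyb and Nfyc, which form NF-Y, and Creb1 and Atf1, which bind the X2 box, 0 of 8 rose and 0 fell by limma, with 0 of 8 at an unadjusted p under 0.05. Their log2 fold changes ran from -0.07 to 0.13 with a median of 0.02. Rfx5 was at 432 ± 15.3 in the Blnk samples and 419 ± 29.5 in the pMIG samples (SD, n = 3; log2 fold change 0.05, SE 0.0775), and Nfya at 1028 ± 16.9 and 1062 ± 58.2 in the same order (log2 fold change -0.05, SE 0.0699).

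Factors known to act on the Ciita gene changed in part. Of 12 measured, 3 rose and 0 fell by limma (5 higher and 2 lower at p under 0.05 before adjustment), with a median log2 fold change of 0.11. With a robust trend in the variance prior, 2 fell. Irf1, an interferon-regulated activator, stood at 375, 479 and 488 in the Blnk samples and at 271, 292 and 280 in the pMIG samples (log2 fold change 0.66, limma adjusted p = 0.0173). A second, dimmer Irf1 probe was not used, and with the mean of both probes Irf1 did not pass (0.32, adjusted p = 0.175). Irf4, a partner of ETS factors in B cells, rose by 0.40 (limma adjusted p = 0.0164). Zbtb32, a zinc finger repressor that acts with Blimp-1 on Ciita in plasma cells, rose as well, with 187, 203 and 176 in the Blnk samples and 86, 82 and 75 in the pMIG samples (log2 fold change 1.22, limma adjusted p = 0.000271). Prdm1, which encodes Blimp-1, was dim in both groups, at 26.7 ± 2.52 in the Blnk samples and 28.3 ± 1.53 in the pMIG samples (SD, n = 3). Pax5, the B-lineage factor, stood at a log2 fold change of -0.05 (limma adjusted p = 0.803). Without Blnk 2, Blnk 3, pMIG 1 or pMIG 3, 1 of the 3 passed.

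Transcripts of proteins that act on class II molecules after synthesis were higher in part, with 6 of 11 up, 0 down and a median log2 fold change of 0.56. Ifi30, a lysosomal thiol reductase that opens antigens for loading, rose most, to 3643, 4604 and 4877 in the Blnk samples, against 900, 896 and 866 in the pMIG samples (log2 fold change 2.29, limma adjusted p = 6.14e-05). Ctss, the protease that trims the invariant chain in B cells, read 1550, 1501 and 1770 in the Blnk samples and 845, 996 and 954 in the pMIG samples (log2 fold change 0.79, limma adjusted p = 0.00415). Lgmn, an asparagine endopeptidase, rose by 0.73 (limma adjusted p = 0.00173). Marchf1, a ubiquitin ligase that removes class II from the surface, rose as well, by 0.56 (117, 115 and 115 in the Blnk samples, 76, 84 and 75 in the pMIG samples; limma adjusted p = 0.00548). These 4 passed with any 1 array left out. The other members that rose were the proteases Ctsh (1.08, limma adjusted p = 0.00899) and Ctsb (0.70, limma adjusted p = 0.0102). Ctsb did not pass without Blnk 2, pMIG 1 or pMIG 3 (up to 0.0693), and Ctsh passed without pMIG 2 (0.00485) alone.

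Class I presentation, the pathway for CD8+ T cells, had 2 of 16 members up, 0 down (7 higher and 0 lower at p under 0.05 before adjustment) and a median log2 fold change of 0.19. Psme2, a proteasome activator subunit, rose by 0.41 (limma adjusted p = 0.0389) and Tapbp, the peptide-loading protein tapasin, by 0.33 (limma adjusted p = 0.0425), and neither passed with any 1 array left out or with arrays centred on their medians. The number that rose in the list was 6 with the robust trend prior, 4 with dim genes left out and 3 with 16 added before log2. It was 1 with quantile normalization repeated and 0 with the replicate block. Nlrc5, the class I counterpart of Ciita, stood at 2170 ± 167 in the Blnk samples and 1860 ± 21.7 in the pMIG samples (SD, n = 3; log2 fold change 0.22, limma adjusted p = 0.217). B2m, the class I light chain, stood at 7881 ± 378 in the Blnk samples and 6993 ± 218 in the pMIG samples (log2 fold change 0.17, limma adjusted p = 0.301). Summed intensity of the list was 28163 to 30018 in the Blnk samples and 25154 to 26083 in the pMIG samples. All 16 log2 changes lay below the 0.51 of Ciita. The class II gene H2-Ob (0.247), however, lay below several of them, Psme2, Tapbp, Calr (0.307) and Psmb9 (0.248) among them. The difference between the classes was not tested. The classical chains H2-K1 and H2-D1 were found on shared probes and were not counted in the list. In the fit that kept such probes, the one annotated to H2-K1 first read 2947, 3019 and 3048 in the Blnk samples and 2326, 2350 and 2395 in the pMIG samples, and rose by 0.35 (limma adjusted p = 0.0236). Removing any single array took it past 0.05 (adjusted p 0.0561 to 0.0916). The probe annotated to H2-D1 first stood at a log2 fold change of 0.28 (limma adjusted p = 0.062).

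**Figure D5:**
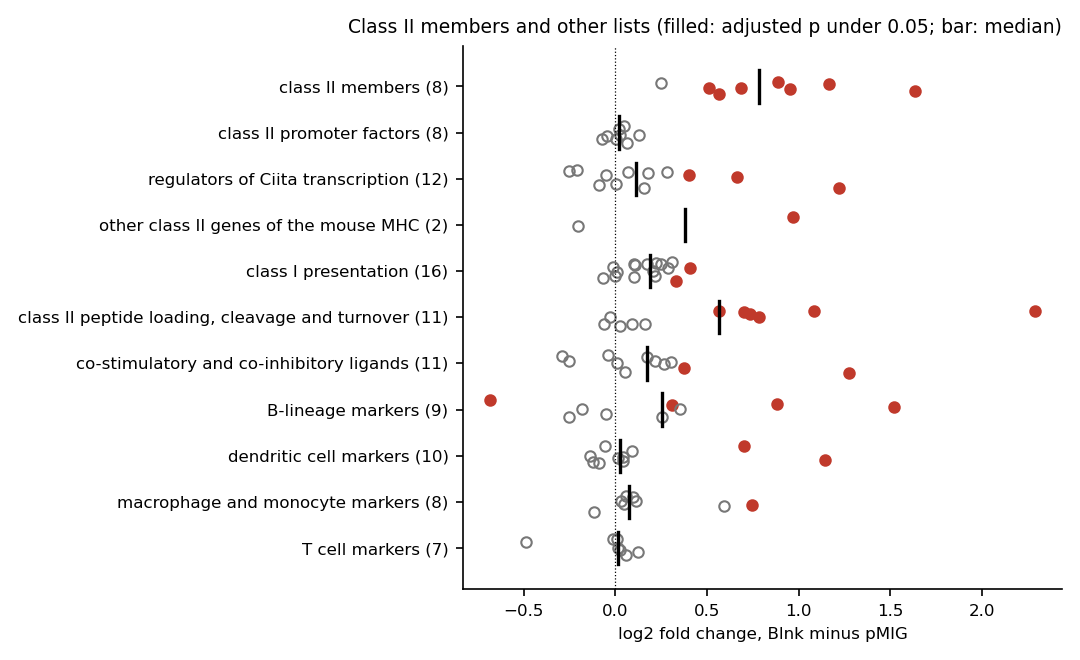
Log2 fold change, Blnk minus pMIG, of every measured gene of the class II set and of 10 other lists (number measured in brackets), filled red where the adjusted p is below 0.05 and open where it is not, with a bar at the median. The class II genes (median 0.78) and the loading and turnover genes (0.56) lie mostly to the right, and the promoter factors cluster at 0.

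Class II is also a mark of dendritic cells and macrophages, and markers of these cells were therefore read beside it. Of 10 dendritic cell markers, 2 rose and 0 fell: the plasmacytoid marker Siglech (98, 135 and 120 in the Blnk samples, 48, 59 and 52 in the pMIG samples; limma adjusted p = 0.00313) and the chemokine receptor Ccr7, which B cells also carry (log2 fold change 0.70, limma adjusted p = 0.0103, not passing without Blnk 2, pMIG 1 or pMIG 3). The summed intensity of this list was 1693 to 2089 in the Blnk samples and 1244 to 1328 in the pMIG samples, most of it from Ccr7. Without Ccr7 it was 471 to 519 in the Blnk samples and 414 to 490 in the pMIG samples. Itgax, the integrin of conventional dendritic cells, stood at 26.7 ± 1.15 in the Blnk samples and 26.0 ± 2.65 in the pMIG samples (SD, n = 3). It lay below the median of every array, as did 5 of the 10 markers in all and 8709 of all 19938 genes.

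Of 8 macrophage and monocyte markers, 1 rose and 0 fell (before adjustment, 2 and 0 at p under 0.05). The one that rose was Fcgr1, a high-affinity Fc receptor, at 235, 258 and 233 in the Blnk samples and 135, 160 and 139 in the pMIG samples (limma adjusted p = 0.00377). Cd68, a lysosomal protein of macrophages, read 117, 173 and 138 in the Blnk samples and 85, 90 and 106 in the pMIG samples, with the groups apart (log2 fold change 0.59, limma adjusted p = 0.0866). The number that rose was 2 with dim genes left out, with 16 added before log2 and with the robust trend prior. The list summed to 532 to 622 in the Blnk samples and 414 to 440 in the pMIG samples, most of it from Fcgr1 and Cd68. The log2 fold changes of the other markers ran from -0.12 (Cd14) to 0.11 (Lyz2). Of the 8 markers, 6 lay below the median of every array, Adgre1, Csf1r and Lyz2 among them, as did 8709 of all 19938 genes. Of 7 T cell markers, 0 rose and 0 fell by limma (0 and 1 at an unadjusted p under 0.05), with sums of 513 to 584 in the Blnk samples and 522 to 606 in the pMIG samples. The lower one was Cd28, at 115, 111 and 153 in the Blnk samples and 173, 177 and 176 in the pMIG samples (limma adjusted p = 0.0852). With arrays centred on their medians, dim genes left out, 16 added before log2, the robust trend prior or Blnk 3 left out, 1 of the list fell. The part of cells that express Siglech, Ccr7, Fcgr1 or Cd68 in the class II values was not tested.

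Defining markers of the labelled cell type were present. Igll1, a surrogate light chain gene of pre-B cells, was bright in both groups, at 9221 ± 222 in the Blnk samples and 10485 ± 350 in the pMIG samples (SD, n = 3). Of 9 B-lineage markers, 3 rose (Ms4a1, Blk and Cd79a) and 1 fell (Vpreb1, another surrogate light chain gene), with a median log2 fold change of 0.26. At an unadjusted limma p under 0.05, 5 were higher and 3 lower, Igll1 among the lower ones. Cd79a failed to pass whichever array was removed, and Vpreb1 did so without pMIG 2 or pMIG 3. Ms4a1 (CD20), a later B-cell marker, had its lowest Blnk value in Blnk 1, as did most class II genes, with 1477, 2013 and 2230 in the Blnk samples and 657, 653 and 654 in the pMIG samples (log2 fold change 1.52, limma adjusted p = 0.00115).

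The genes with the pattern most like H2-Aa were sought among 88 genes outside the class II set with a mean intensity of at least 100 and a log2 fold change of at least 1 in size. The 5 highest Pearson correlations of log2 intensity over the 6 arrays were those of Gm1965 (0.998), Rilpl2 (0.9977), Gpm6a (0.9961), Vcl (0.9958) and Zbtb32 (0.9953). All 5 rose, by 1.02 (Rilpl2) to 1.73 (Gm1965) on the log2 scale. Among the class II genes themselves, the correlation with H2-Aa was 0.9873 for Cd74, 0.961 for Ciita, 0.9509 for H2-DMa and 0.7143 for H2-Ob. The arrays fall into 2 groups, so that these values mostly restate the group difference and carry no test.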

How the data were processed

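Total RNA from 6 samples was measured on Affymetrix arrays, 3 transduced with Blnk and 3 with pMIG. Per the submitters' processing notes, RMA was used, with no version stated. The deposited values are intensities, whole numbers from 3 to 22187, which resemble rounded RMA output put back on a linear scale (judged from the numbers themselves). Their log2 was taken with nothing added. Rounding makes coarse steps in dim probes, and the number of arrays limits the precision.

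Probes were named from the platform annotation: 21789 of 35421 had 1 symbol, 1621 had several and 12011 had none. Names were checked against RefSeq's GRCm38.p6 gene table, which holds the identifiers of 21698 single-symbol probes. Groups were compared with limma 3.58.1 in R 4.3.3 (lmFit, eBayes, group as the only term, two-sided), adjusted by Benjamini-Hochberg over 19938 genes. The code was tested on simulated data. A planned comparison of protein sequences was not made, for want of a protein table. Close relatives can share signal in class II probes.

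The genes, the lists and the tests were chosen with earlier results of these data known. Each list names up to 4 genes with the smallest adjusted p and the 2 brightest. Itgax, Adgre1, Csf1r, Lyz2, Pax5, Prdm1, Rfx5, Nlrc5 and the partner comparisons were added after values were seen where they fall outside this rule. Some genes of the lists are not reported here. Alternatives were other normalizations, filters, priors, weights and probe choices, a replicate block, and each array left out. Deviations from group means of samples with the same replicate number correlated at -0.19, 0.06 and -0.12, so the numbers were not taken as pairs.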

Additional observations from a re-analysis of the deposited data

How the results depend on the processing

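All 8 class II genes kept a positive log2 fold change under all 15 alternatives. Most of these could not change a sign, since every Blnk sample lay above every pMIG sample or the estimate stayed the same. Only repeated quantile normalization and median centring could have done so. The number that rose was 7 in the reported fit and 4 with the replicate number as a block, where H2-Ab1 (adjusted p = 0.101), H2-Eb1 (0.136) and Ciita (0.0608) did not pass, and it was 3 to 6 with 1 array left out. With quantile normalization repeated, H2-Eb1 did not pass (0.0636). H2-Ob passed under none, with adjusted p from 0.0841 to 0.505. Over all genes, 500 rose and 220 fell in the reported fit. The block gave 208 and 81, leaving out dim genes 807 and 421, the robust trend prior 1021 and 518, and adding 16 before log2 gave 359 that fell. With 1 array left out, 195 to 304 rose and 72 to 133 fell. Fewer arrays, fewer genes tested or fewer degrees of freedom change these counts by construction, and the cause of the others was not tested. Of 141 counts for the other lists under an alternative, leaving out those at 0 in both fits, 101 stayed within 1.5 times. Quantile normalization moved the median of all genes by -0.03 and median centring by -0.04 on the log2 scale, and neither turned a class II gene round. Since samples with the same replicate number did not deviate together, the block is not read as a weaker effect. Dim genes near the array median, such as H2-Ab1 and Ciita in the pMIG samples, can hide a change.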

Other observations

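Of 11 co-stimulatory and co-inhibitory surface molecules of antigen-presenting cells, Cd40 and Cd48 rose and 0 fell (limma, adjusted over all genes), with a median log2 fold change of 0.17. The probes of 5 of the 11 lay below the median of every array, where a change can be hidden, as did those of 8709 of all 19938 genes. Cd40, the receptor by which T cells license antigen-presenting cells, read 169, 197 and 189 in the Blnk samples and 77, 74 and 78 in the pMIG samples (log2 fold change 1.27, limma adjusted p = 0.000147). Cd48, an adhesion ligand, rose by 0.37 (limma adjusted p = 0.0314), but failed to pass whichever array was removed. Icam1, an adhesion ligand too, stood at a log2 fold change of 0.30 (limma adjusted p = 0.0692). With dim genes left out, 16 added before log2, the robust trend prior or array weights, 3 of the list rose. With the replicate block or arrays centred on their medians, 1 rose. The costimulatory ligand Cd80, named after its values were seen, was dim, at 39.3 ± 4.04 in the Blnk samples and 34.7 ± 9.50 in the pMIG samples (SD, n = 3).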
